A study of Mus musculus with 25 samples.

Results

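The Bcl-2 family was followed at the level of RNA in mouse oocytes and early embryos through 10 genes in 3 functional classes. Mcl1, Bcl2 and Bcl2l1 are guardians, which oppose cell death, and Bcl2l10 is grouped with them here although its effect is disputed. Bax, Bak1 and Bok are the effectors, and Bid, Bcl2l11 and Pmaip1 belong to the BH3-only class. The genes were taken by symbol from the 35561 genes listed in either of 2 tables. The embryo table lists all 10, and the oocyte table lists 9, so Bak1 was not analysed in oocytes.

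Proteins of this family decide whether the outer membrane of the mitochondrion stays closed. Effectors such as BAX and BAK form pores that let cytochrome c out, guardians such as BCL-XL and MCL1 hold them in check, and BH3-only proteins neutralise the guardians or activate the effectors. In mouse oocytes and eggs, Bcl2l10, also called Diva or Boo, is known as a highly expressed family member, whose effect on cell death has been reported in either direction.

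The 25 Smart-seq2 libraries, made from amplified full-length cDNA of strain C57BL/6, formed 6 groups. Oocytes were taken at the germinal vesicle stage and reached metaphase II (MII), when an oocyte awaits fertilization, after 16 h in culture. Embryos came from in vitro fertilization of 6 h and were cultured to the 2-cell stage or to the morula, the compact ball of cells that precedes the blastocyst. The culture medium held PBS, the salt solution used as control (MII n = 4, 2-cell n = 4, morula n = 4), or a small molecule labelled VCD (MII n = 5, 2-cell n = 4, morula n = 4). The sources used here do not give the full name or dose of VCD, the age of the mice, or how many oocytes or embryos went into a library. They also do not say whether replicate libraries stem from different animals or cultures, so each p-value speaks only of the spread among these libraries, which may be technical.

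The values are FPKM, fragments counted per length of transcript and per library total, so they can be compared between genes. The steps of the FPKM values implied 15075700 to 20998100 reads per library, at which 1 read in a transcript of 1 kb is worth 0.0476 to 0.0663 FPKM. Between 8257 and 11995 genes reached 1 FPKM in a library. The 6 oocyte markers summed to 5596 to 7367 FPKM in MII libraries, 1877 to 2465 in 2-cell embryos and 29.8 to 59.996 in morulae. The 6 2-cell markers summed to 744 to 1364 FPKM at that stage and 14.1 to 52.2 in morulae. In oocytes Tdpoz4 and Gm5662 were not listed, and the 4 listed summed to 0.373 to 0.856. The 8 morula markers summed to 211 to 344 FPKM in morulae and 25.1 to 39.1 in 2-cell embryos. In oocytes Nanog and Cdx2 were not listed, and the 6 listed summed to 56.5 to 117. Among them Cdh1 measured 35.6 to 88.0 FPKM in oocytes and 20.1 to 33.6 in morulae. Gata3 measured 15.3 to 21.5 FPKM in oocytes, 6.95 to 10.6 in 2-cell embryos and 5.06 to 18.9 in morulae. Neither was highest in morulae. The 11 markers of cumulus and granulosa cells, of which Foxl2 was not listed in oocytes, summed to 7.20 to 19.5 FPKM per library over all groups. Of these, 8 stayed below 1 FPKM wherever they were listed, Foxl2, Fshr and Ptx3 among them. The other 3 did not. Cyp19a1 reached 7.23 to 10.1 FPKM in oocytes, Amhr2 7.91 to 17.9 FPKM in morulae, and Kitl lay between 0.356 and 5.02 FPKM over all libraries. The part of other cells in the results below was not tested.

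All 10 genes are protein coding. In GRCm38 with the GENCODE M21 annotation, the guardians lie at chr9:75347758-75351632 on the plus strand (Bcl2l10), chr3:95658788-95663176 on the plus strand (Mcl1), chr1:106538178-106714274 on the minus strand (Bcl2) and chr2:152780668-152831728 on the minus strand (Bcl2l1). The effectors lie at chr7:45461697-45466898 on the minus strand (Bax), chr17:27019810-27029009 on the minus strand (Bak1) and chr1:93685660-93695764 on the plus strand (Bok). The BH3-only genes lie at chr6:120891930-120916853 on the minus strand (Bid), chr2:128126038-128162547 on the plus strand (Bcl2l11) and chr18:66458533-66465565 on the plus strand (Pmaip1). Some reads of some members could come from other genes. Of the 50-base words of Bid, 16.4% also occur in Bcl2l13, which overlaps it. Bak1 shares 17.1% of its words with the overlapping gene Ggnbp1, Bax 8.51% with Gm45808, and Bcl2 5.25% with other genes, chiefly the overlapping D630008O14Rik. Bcl2l10, Mcl1, Bcl2l1, Bok and Pmaip1 share none. The sources do not say how the authors assigned such reads or whether strand was used.

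Promoters are shown for 3 members picked as examples: Mcl1 and Bax, whose RNA was highest in morulae, and Bcl2l1, whose RNA was highest in 2-cell embryos. The RefSeq table held no promoter of Bcl2l10. Each sequence is the RefSeq window from 250 bases before to 50 bases after a transcription start (GRCm38.p6), 5′ to 3′ on the gene's strand. Capitals mark GGGCGG (GC box), CACGTG (E-box) and TGACG (core of the cAMP response element), searched on both strands, so that a match on the other strand reads CCGCCC or CGTCA. The windows are chr3:95658471-95658770 (plus) for Mcl1, chr7:45466849-45467148 (minus) for Bax and chr2:152831679-152831978 (minus) for Bcl2l1. The Bcl2l1 window is that of the most upstream of its 3 starts in the RefSeq table.

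Mcl1: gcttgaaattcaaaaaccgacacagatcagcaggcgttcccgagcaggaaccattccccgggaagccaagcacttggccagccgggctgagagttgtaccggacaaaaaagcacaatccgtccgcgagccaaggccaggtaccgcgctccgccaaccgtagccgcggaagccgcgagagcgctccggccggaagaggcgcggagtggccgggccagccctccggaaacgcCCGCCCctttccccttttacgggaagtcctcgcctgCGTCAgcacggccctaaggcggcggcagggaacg
Bax: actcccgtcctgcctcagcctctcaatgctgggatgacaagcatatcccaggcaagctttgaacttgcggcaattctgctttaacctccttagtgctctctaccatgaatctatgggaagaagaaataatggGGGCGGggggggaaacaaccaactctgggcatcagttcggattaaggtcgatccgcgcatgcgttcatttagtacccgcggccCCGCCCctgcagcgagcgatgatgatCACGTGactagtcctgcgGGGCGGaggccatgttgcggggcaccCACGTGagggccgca
Bcl2l1: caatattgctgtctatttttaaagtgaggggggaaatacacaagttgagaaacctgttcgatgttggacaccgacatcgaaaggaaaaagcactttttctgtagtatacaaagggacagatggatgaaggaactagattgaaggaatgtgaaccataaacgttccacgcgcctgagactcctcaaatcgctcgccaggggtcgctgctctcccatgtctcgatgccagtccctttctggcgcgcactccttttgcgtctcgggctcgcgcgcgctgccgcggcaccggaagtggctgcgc

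The Mcl1 window holds 1 GC box and 1 TGACG. The Bax window holds 3 GC boxes and 2 E-boxes. The Bcl2l1 window holds none of these. Neither does it hold the TATA box, searched as TATAAA, or the motif CCAAT. Among members not shown, GC boxes numbered 7 in Bcl2, 3 in Bid, 3 in each of 2 Bcl2l11 windows, 1 in Bok and 0 in Bak1. Whether any motif goes with the RNA pattern was not tested. Of 32851 RefSeq promoters of the same length, 35.7% hold a GC box, 7.15% a CACGTG, 20.8% a TGACG, 13.6% a TATA box and 37.4% a CCAAT. These matches describe the letters and are no evidence of binding.

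The ends of 2 transcripts are shown because oocytes carry stored RNA whose poly(A) tail is lengthened during maturation, a step known to use TTTTAT (the cytoplasmic polyadenylation element) near AATAAA (the polyadenylation signal). The 30-base sites come from GENCODE M21 transcripts, at chr9:75351603-75351632 (plus) for Bcl2l10 and chr2:128162500-128162529 (plus) for Bcl2l11, with these motifs in capitals.

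Bcl2l10: caaattcttAATAAAtgtatgcgctttttt
Bcl2l11: tatgttcttaatgaaTTTTATataAATAAA

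Bcl2l11 was the one member with TTTTAT in the last 100 bases of its transcript, and Bcl2l10 held only the signal. TTTTAT occurs in this window in 13.8% of 19143 protein-coding transcripts, AATAAA in 63.9% and both in 8.65%.

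Bcl2l10 dominated the family in oocytes and 2-cell embryos and was a minor member in morulae. In MII oocytes with PBS it measured 11448, 10942, 10380 and 10546 FPKM in replicates 1 to 4, and with VCD 9629, 10242, 10839, 10378 and 9355 FPKM in replicates 1 to 5. It was the most abundant of all listed genes in each of these 9 libraries, ahead of Zbed3, H1foo and Spin1 by group mean, and held 3.09% to 3.77% of all FPKM. The ranges of both media overlap.

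In 2-cell embryos Bcl2l10 measured 9817, 8906, 9202 and 9685 FPKM with PBS and 9542, 9047, 7447 and 10206 FPKM with VCD (replicates a to d). It ranked 2 or 3 in each of these libraries, with Zbed3 first by group mean. The lowest value was that of VCD replicate c. The group means lay in the order MII PBS (10829 ± 475 FPKM, SD, n = 4), MII VCD (10089 ± 596, n = 5), 2-cell PBS (9403 ± 423, n = 4) and 2-cell VCD (9060 ± 1175, n = 4), and the ranges of each pair of neighbours overlap. Oocytes and embryos stand in separately deposited tables, so levels set across them were not tested.

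In morulae Bcl2l10 measured 2.34, 6.09, 6.04 and 1.17 FPKM with PBS and 2.85, 3.14, 5.84 and 1.20 FPKM with VCD. These values rest on 23 to 139 implied reads per library, and the gene's rank lay between 5027 and 9444. Every morula library was below every 2-cell library, and replicate 4 was the lowest in both media. With PBS the mean was 2406-fold lower in morulae than in 2-cell embryos, and the log2 change was -11.07 (SE 0.34, limma adjusted p = 3.77e-10). With VCD the mean was 2782-fold lower and the log2 change was -11.16 (SE 0.29, adjusted p = 3.18e-10). Log2 changes are of FPKM + 1 throughout, which understates the change of low values. In whole samples, fewer cells of a type and less RNA per cell cannot be told apart, nor can stage and the later culture medium that the morulae received.

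**Figure D1:**
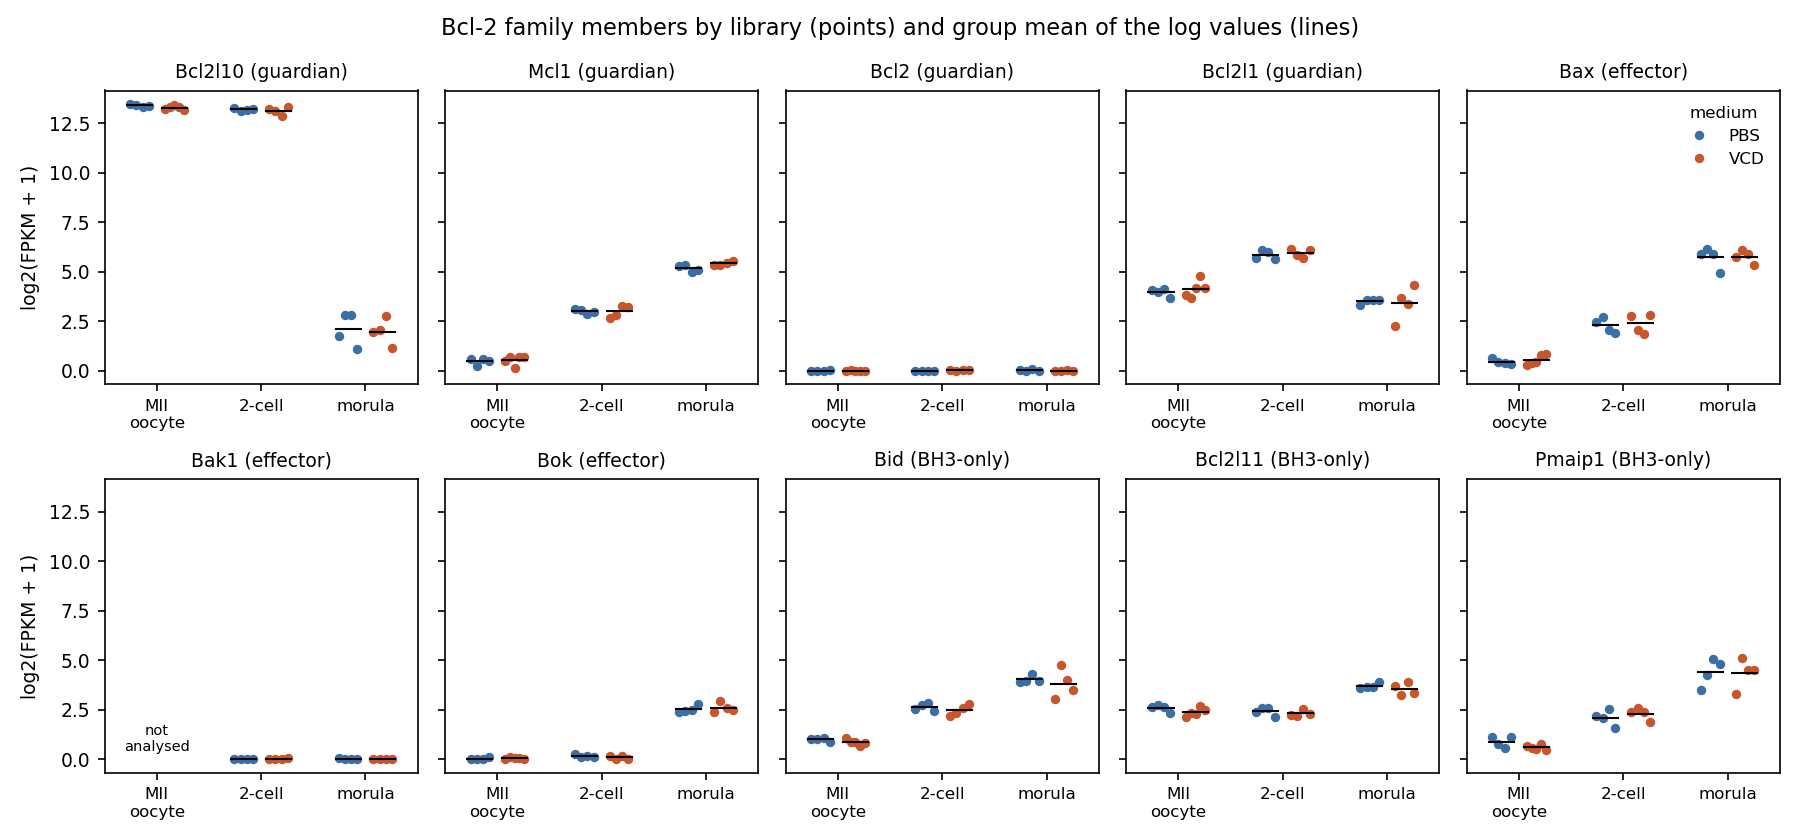
RNA level of each member as log2(FPKM + 1) (vertical axis) by stage (horizontal axis). Points are libraries with PBS (blue) or VCD (orange) and black lines are group means of the log values (n = 4, or 5 for MII with VCD). Bcl2l10 lies between 7447 and 11448 FPKM in all oocyte and 2-cell libraries and between 1.17 and 6.09 FPKM in morulae, while Mcl1, Bax and Bok are highest in morulae. Bak1 was not analysed in oocytes.

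Bcl2l1, which encodes the guardian BCL-XL, was highest in 2-cell embryos. It measured 16.1, 15.0, 16.4 and 11.8 FPKM in MII oocytes with PBS and 13.2, 11.7, 17.4, 26.3 and 17.0 FPKM with VCD, where replicate 4 was the highest. In 2-cell embryos it measured 51.9, 67.0, 64.2 and 48.6 FPKM with PBS and 69.7, 57.8, 50.9 and 68.6 FPKM with VCD. All 8 of these libraries lie above every oocyte and every morula library.

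In morulae Bcl2l1 measured 9.19, 11.0, 10.9 and 11.0 FPKM with PBS. With VCD it measured 3.89, 11.7, 9.43 and 18.9 FPKM, a 4.87-fold span between replicates 1 and 4, against a 1.20-fold span with PBS. It fell by 2.34 on the log2 scale from 2-cell embryos to morulae with PBS (SE 0.14, limma adjusted p = 5.17e-08), and by 2.54 with VCD (SE 0.36, adjusted p = 4.64e-05). The morulae with VCD overlap the oocytes in range, and those with PBS lie just below them.

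Mcl1, a guardian whose protein turns over quickly, was higher at each later stage. Oocytes held 0.170 to 0.540 FPKM with PBS and 0.106 to 0.650 with VCD (11 to 32 and 6 to 44 implied reads). In 2-cell embryos it measured 7.75, 7.42, 6.37 and 6.85 FPKM with PBS and 5.28, 6.15, 8.76 and 8.52 FPKM with VCD. Neither range overlaps that of the oocytes.

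In morulae Mcl1 measured 38.1, 39.9, 31.1 and 33.1 FPKM with PBS and 40.3, 39.3, 42.7 and 45.9 FPKM with VCD. All 8 morula libraries lie above all 8 2-cell libraries. From 2-cell embryo to morula it rose by 2.17 on the log2 scale with PBS (SE 0.13, limma adjusted p = 4.99e-08) and by 2.42 with VCD (SE 0.18, adjusted p = 3.25e-07). Mcl1 was the most abundant of the 4 guardians in each morula group by mean, at 35.6 ± 4.14 FPKM with PBS and 42.0 ± 2.93 with VCD (SD, n = 4).

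Bcl2, the founding guardian of the family, was close to the detection limit everywhere. It was listed at 0 to 0.0579 FPKM, or 0 to 10 implied reads per library. Its group means followed no order in which neighbours had separate ranges, and it was too low to be tested in any comparison.

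Bax, whose protein forms pores in the mitochondrial outer membrane, was the most abundant tested effector in morulae. Oocytes held 0.271 to 0.549 FPKM with PBS and 0.221 to 0.813 with VCD, on 7 to 23 implied reads. In 2-cell embryos it measured 4.57, 5.58, 3.25 and 2.75 FPKM with PBS and 5.89, 3.21, 2.66 and 6.19 FPKM with VCD. In morulae it measured 59.05, 71.0, 59.1 and 29.8 FPKM with PBS and 51.9, 66.9, 58.4 and 40.0 FPKM with VCD. The 3 stages have separate ranges, and replicate 4 was again the lowest morula library in both media.

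Bax rose by 3.44 on the log2 scale from 2-cell embryo to morula with PBS (SE 0.27, limma adjusted p = 4.45e-07), a 13.6-fold difference between the means. With VCD it rose by 3.37 (SE 0.26, adjusted p = 3.6e-07), or 12.1-fold between the means.

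Bok, an effector that can act without the activators needed by BAX, was detected well in morulae. It measured 0 to 0.0871 FPKM in oocytes and 0 to 0.208 FPKM in 2-cell embryos, on 0 to 6 implied reads. In morulae it measured 4.32, 4.51, 4.66 and 5.86 FPKM with PBS and 4.31, 6.79, 5.01 and 4.73 FPKM with VCD. No morula library overlaps the earlier stages. Bok entered the stage comparisons through its morula values alone, so that it differed there follows from the filter on low values. Its log2 change was 2.36 with PBS (SE 0.12) and 2.52 with VCD (SE 0.16), and with a pseudocount of 0.1 in place of 1 it was 4.43 and 5.02.

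Bak1, the effector that resides on the outer membrane of the mitochondrion, was at 0 to 2 implied reads in each embryo library. Its 4 morula libraries with VCD were listed at 0, which allows up to 0.0193 FPKM (3 reads over the group, counting error only). It was not tested.

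Bid, which caspase 8 cuts into its active form, was higher at each later stage. It measured 1.07, 1.04, 1.15 and 0.858 FPKM in oocytes with PBS and 1.12, 0.868, 0.835, 0.626 and 0.791 FPKM with VCD. In 2-cell embryos it measured 4.86, 5.77, 6.23 and 4.43 FPKM with PBS and 3.62, 4.05, 5.01 and 5.94 FPKM with VCD. In morulae it measured 14.2, 14.4, 19.0 and 14.6 FPKM with PBS and 7.29, 25.9, 14.9 and 10.5 FPKM with VCD. The stages have separate ranges, and the morulae with VCD spread over 3.56-fold against 1.34-fold with PBS. The log2 rise from 2-cell embryo to morula was 1.39 with PBS (SE 0.15, limma adjusted p = 6.02e-06) and 1.35 with VCD (SE 0.32, adjusted p = 0.0025).

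Bcl2l11 encodes BIM, a BH3-only protein that binds all guardians, and its RNA overlapped in range between oocytes and 2-cell embryos. It measured 5.33, 5.72, 5.21 and 4.15 FPKM in oocytes with PBS and 3.41, 4.02, 3.90, 5.54 and 4.71 FPKM with VCD. The 2-cell values were 4.25, 5.07, 4.97 and 3.37 FPKM with PBS and 3.78, 3.62, 4.85 and 3.84 FPKM with VCD. Of the 3 BH3-only members it was the most abundant in oocytes by mean. Bik, a BH3-only gene outside the members, was higher there, at 8.95 FPKM with PBS and 7.04 with VCD by mean. Morulae held 11.0, 11.7, 11.5 and 14.3 FPKM with PBS and 12.2, 8.49, 13.9 and 9.16 FPKM with VCD, all above the earlier stages. The log2 rise from the 2-cell stage was 1.28 with PBS (SE 0.15, limma adjusted p = 1.2e-05) and 1.23 with VCD (SE 0.19, adjusted p = 0.000115).

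Pmaip1 encodes NOXA, a BH3-only protein that binds MCL1, and it was the most abundant of the 3 BH3-only members in morulae by mean. Oocytes held 0.492 to 1.19 FPKM with PBS and 0.369 to 0.687 with VCD, ranges that overlap. In 2-cell embryos it measured 3.59, 3.22, 4.91 and 2.02 FPKM with PBS and 4.21, 4.96, 4.23 and 2.69 FPKM with VCD. In morulae it measured 10.3, 17.9, 32.2 and 27.7 FPKM with PBS and 8.91, 33.6, 21.9 and 21.9 FPKM with VCD. Replicate 1 was the lowest morula library in both media, with Pmaip1 below Bcl2l11 there, and the spans were 3.11-fold and 3.78-fold. Bad, a BH3-only gene outside the members, averaged 22.7 FPKM in morulae with PBS, against 22.0 for Pmaip1. With VCD the means were 20.7 for Bad and 21.6 for Pmaip1. The log2 rise from the 2-cell stage was 2.30 with PBS (SE 0.33, limma adjusted p = 5.38e-05) and 2.06 with VCD (SE 0.34, adjusted p = 0.000167).

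Counted together, 8 of the 10 members reached 1 FPKM in at least 4 libraries of each stage comparison, Bok among them only through morulae. With PBS, 6 members were called higher in morulae, against 42.7% of the 12517 genes tested, and 2 lower, against 45.0%. With VCD, which shares no library with the PBS comparison, the counts were again 6 higher and 2 lower, against 41.0% and 43.9% of 12355 genes. All 8 had separate ranges in either medium, as did 83.4% of all genes with PBS and 79.2% with VCD. Change between these stages was common among all genes, and the counts do not set the family apart. The median log2 change was 1.78 (PBS) and 1.70 (VCD) over the 8 members and -0.08 in either medium over all genes.

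**Figure D2:**
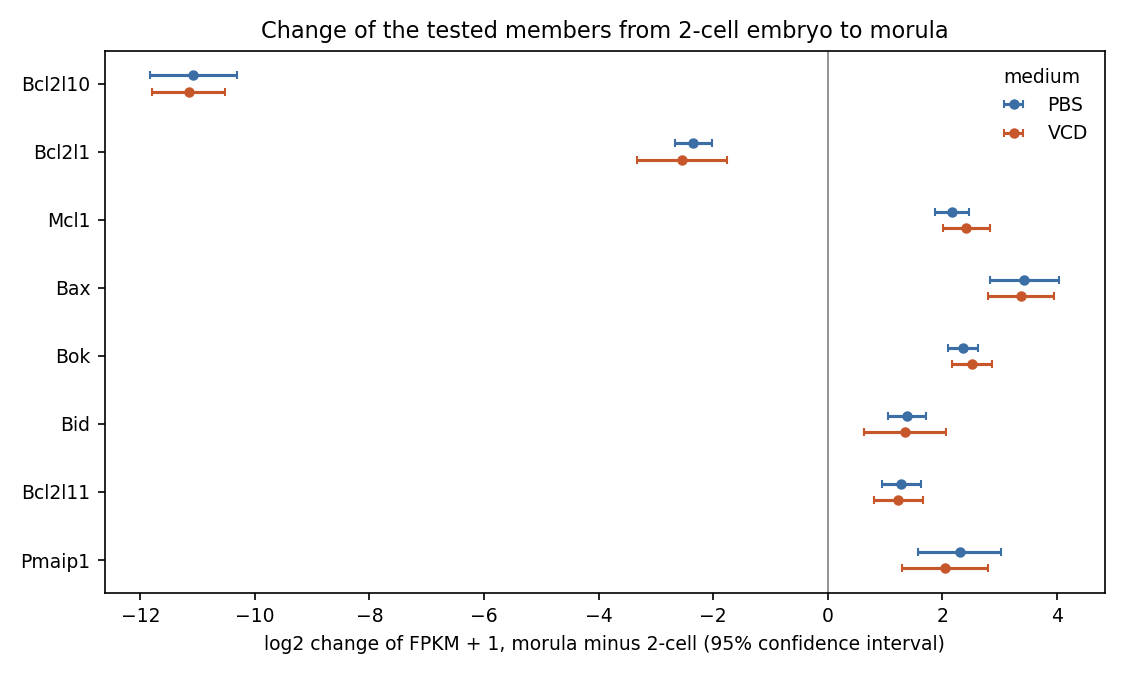
Log2 change of FPKM + 1 from 2-cell embryo to morula (horizontal axis) for the 8 tested members (vertical axis), with 95% confidence intervals from limma, for PBS (blue) and VCD (orange), n = 4 libraries a group. Bcl2l10 and Bcl2l1 lie left of 0 and the other 6 right of it in both media. Bok entered through its morula values alone.

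The make-up of the family changed with stage. Bcl2l10 made up 99.8% of the summed FPKM of the 9 members listed in MII oocytes in either medium. In 2-cell embryos it made up 99.1% of the sum of all 10 in either medium. In morulae its share was 2.33% ± 1.33 with PBS and 1.99% ± 1.09 with VCD (SD, n = 4). Among the other members, Bcl2l1 held 65.2% ± 2.202 of the sum in oocytes with PBS, 70.3% ± 2.01 in 2-cell embryos and 6.82% ± 0.846 in morulae (SD, n = 4). In morulae with PBS, Bax held 34.7% ± 9.03 of that sum, Mcl1 23.1% ± 3.26 and Pmaip1 14.2% ± 6.48. The shares with VCD were 34.2% ± 5.72, 26.9% ± 5.00 and 13.0% ± 4.44.

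The summed guardians stood in a different proportion to the summed effectors and BH3-only genes at each stage. With Bcl2l10 counted as a guardian, a placing that is disputed, the ratio of these FPKM sums was 1464 ± 98.4 in oocytes with PBS, 566 ± 144 in 2-cell embryos and 0.463 ± 0.0560 in morulae (SD, n = 4). Without Bcl2l10 it was 2.05 ± 0.213, 3.80 ± 0.420 and 0.429 ± 0.0690. With VCD the ratio without Bcl2l10 was 2.80 ± 0.540 (n = 5), 3.98 ± 0.308 and 0.523 ± 0.166 (n = 4). The ratio was above 1 in each oocyte and 2-cell library and below 1 in each morula library, with or without Bcl2l10. The sums cover the 10 members in embryos and 9 in oocytes, where Bak1 was not analysed and added nothing. The ratio without Bcl2l10 depends on this choice of members. Bik, a BH3-only gene outside them, averaged 8.95 FPKM in oocytes and 47.9 in 2-cell embryos with PBS. The BH3-only members together summed to 7.02 and 13.2 FPKM in these groups, the effectors to 0.411 and 4.18, and the guardians without Bcl2l10 to 15.3 and 65.0. A ratio with Bik was not computed. These are RNA sums and do not measure protein.

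**Figure D3:**
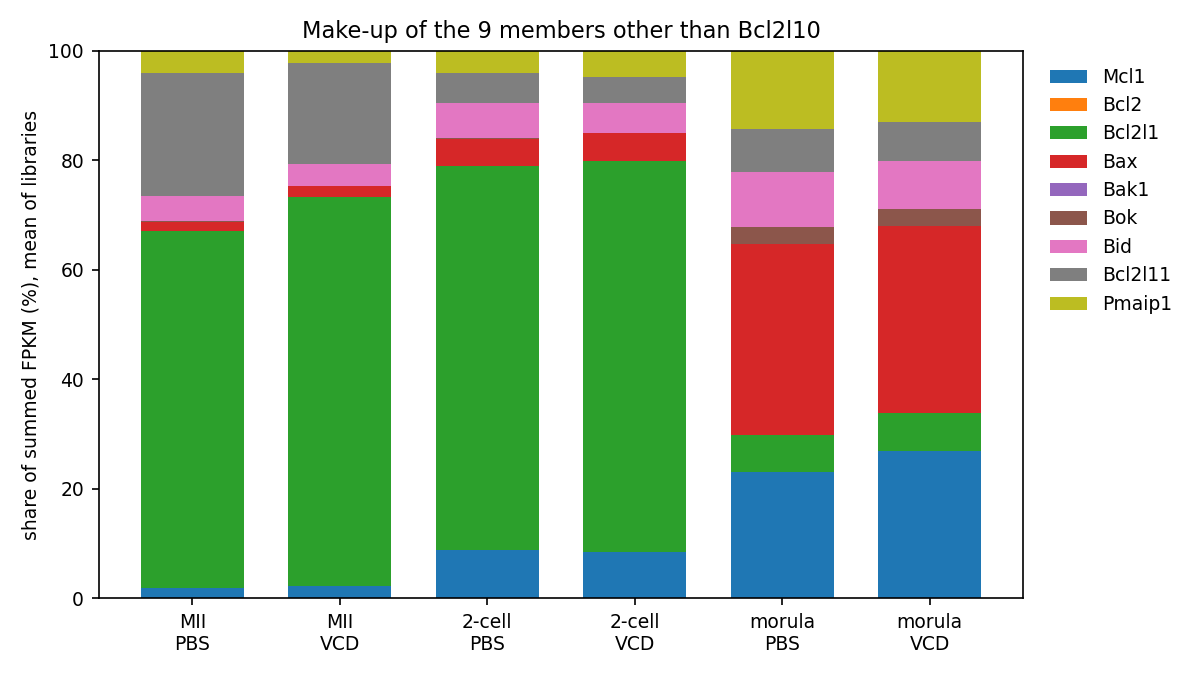
Share of each member in the summed FPKM of the members other than Bcl2l10 (vertical axis, percent, mean over libraries) in each of the 6 groups (horizontal axis, n = 4, or 5 for MII with VCD). Bcl2l1 holds 65.2% to 71.4% in oocytes and 2-cell embryos and 6.82% to 6.83% in morulae, where Bax and Mcl1 hold the largest shares. Bak1 was not analysed in oocytes.

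Between media, no tested member passed the test at any stage. In MII oocytes 4 members were tested and 0 were called by limma, with 0 at an unadjusted p below 0.05, against 0.0115% of 8715 genes called. In 2-cell embryos 0 of 7 were called, with 0 at an unadjusted p below 0.05, against 0% of 11369 genes. In morulae 0 of 8 were called, with 0 at an unadjusted p below 0.05, against 0.0100% of 9959 genes. No tested member had separate ranges between media, a pattern held by 1.04%, 2.16% and 2.04% of all genes at the 3 stages. The 2-cell and morula comparisons share their libraries of both media with the stage comparisons, and the oocyte comparison shares none.

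The intervals show how large a difference these libraries could have missed on the scale of FPKM + 1. The ratios given with them, here and for the members below, are of FPKM + 1 too, which understates differences of low values. Bcl2l10 in MII oocytes had the smallest p of the members there: its log2 difference, VCD minus PBS, was -0.10 (95% interval -0.23 to 0.02, unadjusted p = 0.1, limma adjusted p = 0.999), a ratio of 0.931 with an interval of 0.853 to 1.02. Its ratio was 0.958 (0.802 to 1.14) in 2-cell embryos and 0.903 (0.466 to 1.75) in morulae, where the plain ratio of FPKM means was 0.833. The interval was wider in morulae, where the libraries held 23 to 139 implied reads of the gene. They spanned 5.22-fold with PBS and 4.87-fold with VCD. What part the read number had in that width was not tested.

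Bcl2l1 had a ratio of VCD to PBS of 1.11 (95% interval 0.824 to 1.50) in oocytes, 1.07 (0.849 to 1.34) in 2-cell embryos and 0.928 (0.541 to 1.59) in morulae. Mcl1 in morulae had the smallest p of the members at that stage, with a log2 difference of 0.24 (-0.11 to 0.59, unadjusted p = 0.156, limma adjusted p = 0.99997). The Mcl1 ranges overlap, although 3 of the 4 morula libraries with VCD were above all 4 with PBS. In 2-cell embryos its ratio was 0.995 (0.772 to 1.28).

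Among effectors, the ratio for Bax was 1.07 (95% interval 0.718 to 1.60) in 2-cell embryos and 1.02 (0.680 to 1.54) in morulae, and that for Bok was 1.06 (0.779 to 1.44) in morulae. Among BH3-only members, Bid had ratios of 0.909 (0.779 to 1.06), 0.890 (0.691 to 1.15) and 0.864 (0.533 to 1.40) at the 3 stages. For Bcl2l11 they were 0.867 (0.711 to 1.06), 0.931 (0.739 to 1.17) and 0.897 (0.659 to 1.22). The plain ratios of FPKM means for Bid were 0.824, 0.875 and 0.941. Pmaip1 had ratios of 1.15 (0.817 to 1.61) in 2-cell embryos and 0.968 (0.519 to 1.80) in morulae. Every one of these intervals holds 1, and the widest were those of Bcl2l10 and Pmaip1 in morulae.

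**Figure D4:**
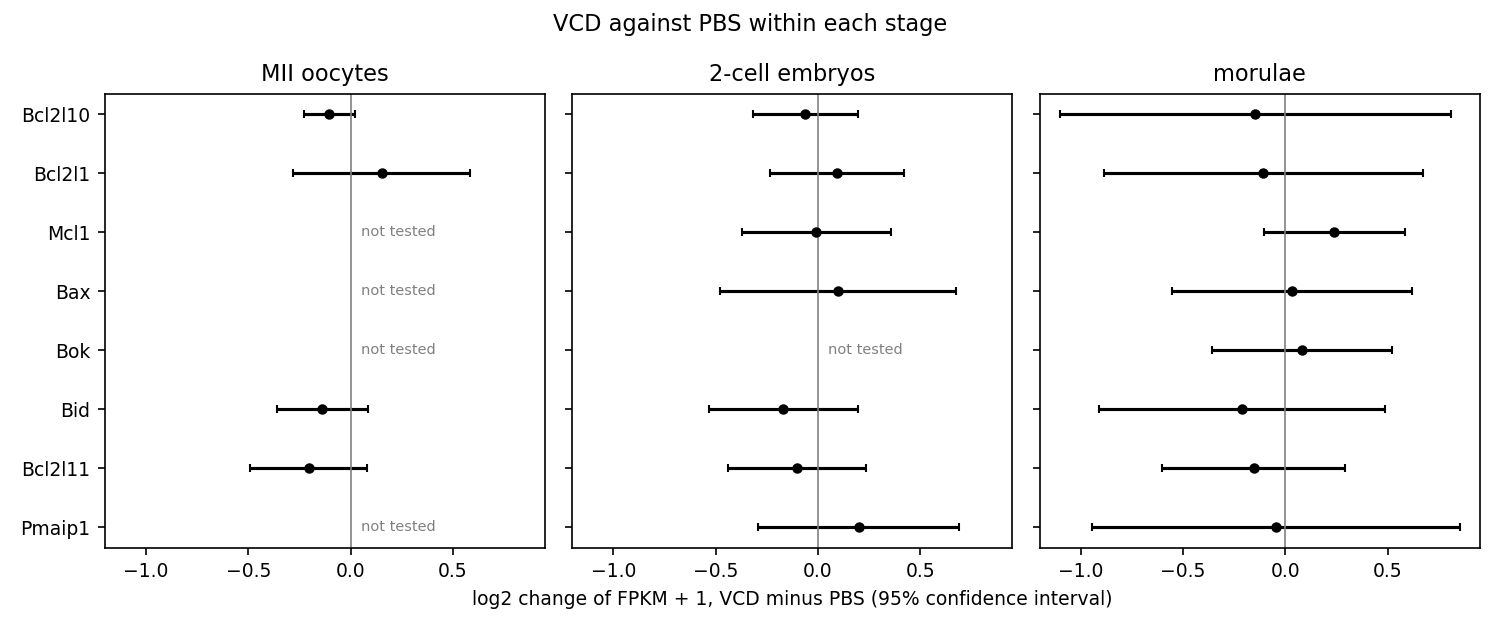
Log2 difference of FPKM + 1 between VCD and PBS (horizontal axis, VCD minus PBS) for each tested member (vertical axis) in MII oocytes, 2-cell embryos and morulae, with 95% confidence intervals from limma (n = 4 a group, 5 for MII with VCD). Every interval spans 0. Members marked as not tested were below the filter on low values at that stage.

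Whether VCD acted differently on the members at the 2 embryo stages was tested as an interaction over the 16 embryo libraries. Of 8 members tested, 0 were called by limma and 0 had an unadjusted p below 0.05, against 0% of 14144 genes called. The smallest p was that of Mcl1, with a log2 difference of differences of 0.25 (95% interval -0.21 to 0.70, unadjusted p = 0.268, limma adjusted p = 0.999).

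Other genes of the family and its pathway give the setting. Of 15 further Bcl-2 family genes, 7 were tested between stages. With PBS, 5 were called higher in morulae and 1 lower, against 42.7% and 45.0% of all genes tested. With VCD 6 were called higher and 1 lower, against 41.0% and 43.9%. Median log2 changes were 1.63 and 2.03, against -0.08 over all genes in either medium. In either medium 2 of these genes, Bad and Bbc3, passed the filter on low values through morulae alone, with no 2-cell library at 1 FPKM. That they were called higher follows from the filter. Bcl2l14, a family member also called Bcl-G, stood at 1.21 ± 0.201 FPKM in 2-cell embryos and 86.6 ± 14.6 in morulae with PBS (SD, n = 4). Its 2-cell libraries spanned 0.933 to 1.37 FPKM with PBS and 0.597 to 1.35 with VCD. It therefore passed the filter only with its morula libraries, and its call is tied to the filter too. Bad, a BH3-only gene whose protein is switched off by growth factor signalling, stood at 0.324 ± 0.204 FPKM in 2-cell embryos and 22.7 ± 4.21 in morulae. Bnip3, whose protein takes part in the removal of mitochondria, rose from 46.8 ± 6.75 to 230 ± 53.5 FPKM. With VCD the largest log2 changes upward were in Bcl2l14 (0.911 to 74.7 FPKM by mean), Bad (0.107 to 20.7) and Bbc3, which encodes the BH3-only protein PUMA (0.0883 to 3.77).

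Bik, a BH3-only gene, was the one of this list called lower in morulae. It stood at 47.9 ± 10.9 FPKM in 2-cell embryos with PBS, above each of the 3 BH3-only members at that stage, and at 2.49 ± 1.22 FPKM in morulae (SD, n = 4; log2 change -3.87, limma adjusted p = 2.9e-07). With VCD it stood at 40.6 ± 4.19 FPKM in 2-cell embryos and 0.945 ± 1.46 in morulae. The morula libraries spanned 0.739 to 3.43 FPKM with PBS and 0 to 3.12 with VCD. Bik therefore passed the filter only with its 2-cell libraries, and its call is tied to the filter. Between media 0 of the 4, 5 and 8 tested genes of this list were called in oocytes, 2-cell embryos and morulae. The smallest p belonged to Bik in oocytes (log2 difference -0.32, unadjusted p = 0.0386, limma adjusted p = 0.999) and in morulae (-0.999, unadjusted p = 0.0445, adjusted p = 0.99997), and to Bcl2l14 in 2-cell embryos (-0.22, unadjusted p = 0.202).

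Of 19 genes listed for the caspase pathway, 16 were tested between stages. With PBS, 12 were called higher in morulae and 3 lower, against 42.7% and 45.0% of all genes tested, and with VCD 11 higher and 3 lower, against 41.0% and 43.9%. Median log2 changes were 0.86 and 0.92, against -0.08 over all genes. Among them Dffb passed the filter through morulae alone and Casp8 through 2-cell embryos alone, in either medium, so that these 2 differed follows from the filter. Dffb, the nuclease that cuts DNA in dying cells, was listed at 0 in each 2-cell library and stood at 17.6 ± 5.54 FPKM in morulae with PBS and 17.2 ± 5.47 with VCD (SD, n = 4). Casp6, an executioner caspase, stood at 1.09 ± 0.160 FPKM in 2-cell embryos and 14.0 ± 4.40 in morulae with PBS, and at 0.898 ± 0.251 and 16.2 ± 5.95 with VCD. Its 2-cell libraries spanned 0.946 to 1.30 FPKM with PBS and 0.672 to 1.25 with VCD. It passed the filter only with its morula libraries, so its call is tied to the filter. Diablo, which relieves caspases of their inhibitors, came next with PBS, at 4.58 ± 0.451 and 17.6 ± 2.21 FPKM. With VCD it was Birc6, an inhibitor of apoptosis, at 1.79 ± 0.285 and 7.31 ± 0.941 FPKM.

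Casp8, the caspase that cuts BID, stood at 34.8 ± 8.43 FPKM in 2-cell embryos and 0.0516 ± 0.0714 in morulae with PBS (SD, n = 4). With VCD it was at 33.6 ± 4.60 FPKM in 2-cell embryos and listed at 0 in all 4 morula libraries. Birc3, an inhibitor of apoptosis, fell with PBS from 269 ± 5.78 to 7.68 ± 3.72 FPKM, and with VCD from 275 ± 27.5 to 6.85 ± 1.96. Birc5, which encodes survivin, averaged 354 ± 29.1 FPKM in 2-cell embryos and 210 ± 35.8 in morulae with PBS, and fell with VCD from 308 ± 63.4 to 212 ± 49.7, where the ranges overlap (limma adjusted p = 0.0366). Between media 0 of the 13, 14 and 15 tested genes were called, the smallest p being that of Aifm1, a mitochondrial flavoprotein, in oocytes (log2 difference 0.21, unadjusted p = 0.161) and 2-cell embryos (0.36, unadjusted p = 0.0669) and Cycs, cytochrome c, in morulae (-0.34, unadjusted p = 0.129).

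Of 20 partners and regulators of the members, 17 were tested between stages. With PBS, 9 were called higher in morulae and 7 lower, against 42.7% and 45.0% of all genes tested, and with VCD 9 higher and 8 lower, against 41.0% and 43.9%. Median log2 changes were 0.74 and 0.56, against -0.08 over all genes. Of the genes called lower, 4 in either medium passed the filter through 2-cell embryos alone, Trp63 among them. Of those called higher, 1 passed through morulae alone with PBS and 0 with VCD. That these differed follows from the filter. Mtch2 with VCD also passed only with its morula libraries, since its 2-cell libraries spanned 0.594 to 1.31 FPKM. Bag1, a chaperone cofactor that binds BCL2, rose from 6.72 ± 3.39 to 73.7 ± 26.9 FPKM with PBS (SD, n = 4). Bcap31, a membrane protein of the endoplasmic reticulum, rose from 48.5 ± 11.4 to 232 ± 7.22 FPKM, and Bag6, a chaperone, from 2.17 ± 0.211 to 8.69 ± 2.99 FPKM. With VCD the same 3 genes led, at log2 changes of 3.80, 2.16 and 1.47.

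Usp9x, which encodes a deubiquitinase that stabilises MCL1, fell from 44.7 ± 8.36 to 3.19 ± 0.646 FPKM with PBS, while Mcl1 RNA rose over the same step. Trp63 stood at 3.40 ± 0.471 FPKM in 2-cell embryos and 0.00677 ± 0.00979 in morulae (SD, n = 4). With VCD their log2 changes were -3.14 (Usp9x) and -2.24 (Trp63). Between media 0 of the 15, 16 and 13 tested genes were called. The smallest p belonged to Usp9x in oocytes (log2 difference -0.26, unadjusted p = 0.0585), Bag6 in 2-cell embryos (0.25, unadjusted p = 0.22) and Vdac3, a mitochondrial channel, in morulae (-0.40, unadjusted p = 0.0295, limma adjusted p = 0.99997). In the interaction 0 genes of the 3 lists were called, the smallest p being those of Bbc3 (unadjusted p = 0.0822), Apaf1 (0.14) and Mtch2 (0.0266), each with an adjusted p of 0.999.

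Genes most like 3 members in their pattern were found by Pearson's r of log2(FPKM + 1) over the 25 libraries among 8582 genes, as a description, since libraries of a stage share most of their profile. C86187, Dnajb4 and Akap9 were most like Bcl2l10 (r = 0.997 each). C86187 averaged 790 FPKM in oocytes with PBS, 654 in 2-cell embryos and 0.330 in morulae. Fam133b (r = 0.966), Bcar3 (r = 0.965) and Tdrd3 (r = 0.958) were most like Bcl2l1, with Bcar3 at 3.28, 22.2 and 0.712 FPKM at the 3 stages with PBS. Rps16-ps2, Atp5g3 and Eif3h (r = 0.993 each) were most like Bax. Rps16-ps2 is a pseudogene of a ribosomal protein gene, so its reads may be shared with that gene.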

How the data were processed

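Per the labels, RNA was measured by Smart-seq2 in 25 libraries. The submitters' processing notes name TopHat2 2.0.12 and Bowtie2 2.2.3, and as the build the chicken's galGal4. The identifiers are mouse Ensembl identifiers, so no coordinates were taken from that build. Which tool and annotation served for counting is not stated. The authors deposited FPKM in 2 tables, of 25158 genes (oocytes) and 34228 genes (embryos), and symbols were matched for 25073 and 34065 of them. Reads were implied from the steps of the values: 90.6% to 93.4% of values worth under 200 reads came out whole within 0.01. For Pmaip1 they did not, and none are given.

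The members and gene lists were chosen with earlier results of these data known. Groups come from the labels. The rule for named genes took all 10 members and, from each list and comparison, the 3 genes called with the largest log2 change in each direction, or where none was called the gene of smallest p. 1 gene that this rule takes is not reported here. Tests were two-sided, on log2(FPKM + 1), by limma 3.58.1 (R 4.3.3) with the variance trended on abundance. A gene was tested if 4 or more of the compared libraries held 1 FPKM of it. P-values were Benjamini-Hochberg adjusted over all genes tested and called below 0.05. The method was tested on simulated data first. Alternatives changed the pseudocount, filter, scaling, variance trend, block, pooling of groups and libraries left out.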

Additional observations from a re-analysis of the deposited data

Results flagged for a closer look

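In groups of 4 or 5 libraries, a highest or lowest library was taken as standing apart when its gap to the nearest other, divided by the range, passed Dixon's 95% critical value (0.829 for 4 libraries, 0.71 for 5). Of 37 sets of values tested, 2 passed, and chance gives about 1 in 20. Bcl2l1 in morulae with PBS was lowest in replicate 1, at 9.19 FPKM against 10.9 to 11.0 FPKM in the other 3. Bid in morulae with PBS was highest in replicate 3, at 19.0 FPKM against 14.2 to 14.6 FPKM in the others.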

How the results depend on the processing

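No member gained or lost a call under any alternative that gave a value. The 119 alternative values for members in the stage comparison with PBS, and the 119 with VCD, kept their direction and their call (largest adjusted p 0.00048 and 0.00994). Leaving out each library in turn is among these. None of the 63, 109 and 126 alternative values between media in oocytes, 2-cell embryos and morulae, nor the 183 of the interaction, was called, and 1, 9, 12 and 21 of these uncalled values changed sign. At a filter of 5 FPKM Bok was left out of the stage comparisons and 5 members rose. Median-of-ratios scaling moved the median of all genes between stages by -0.28 (PBS) and -0.25 (VCD).

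Same-numbered libraries of the 2 media were not taken as paired, since their deviations from the group means correlated from -0.33 to 0.38 and not every library was closest to its own number. The correlations were negative in oocytes. In morulae, replicates 1 and 4 were each closest to their own number in the other medium (r = 0.33 and 0.38). In 2-cell embryos this held for replicate a (r = 0.16). With the number as a replicate block, 0 members were called at each stage and in the interaction, and the log2 difference of Bcl2l10 in oocytes was -0.08. No paired analysis was possible between stages because 2-cell libraries carry letters and morulae numbers.

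Over all genes, the counts called between media were 1 in oocytes, 0 in 2-cell embryos and 1 in morulae. They were 0 in oocytes with a pseudocount of 0.1, without a filter, at 5 FPKM or with the block, 1 in 2-cell embryos with the block, 2 in a fit over all embryo libraries, and in morulae 3 in that fit, 2 without PBS replicate 1 and 0 at 5 FPKM. The count for the interaction was 0. It was 1 with the block, a pseudocount of 0.1 or without morula VCD replicate 4, and 2 without a filter or without 2-cell VCD replicate a. A filter of 5 FPKM left 6682 and 6444 genes called between stages in place of 10978 and 10479, since fewer genes were tested.

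Depth limits Bcl2, Bak1 and, before the morula, Bok, at 10 implied reads or fewer per library.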
